A study of Mus musculus with 36 samples.

Results

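The secretory antibody system of the submandibular gland was followed through 6 genes, chosen by name from 31102 genes found in any single-cell table. They were the immunoglobulin kappa constant gene Igkc, the alpha and mu heavy chain constant genes Igha and Ighm, the joining chain gene Jchain, Mzb1, a chaperone partner of the endoplasmic reticulum of antibody-secreting cells, and Pigr, the epithelial receptor that carries polymeric antibody across the cell. All 6 were present in the tables and passed the filter on low counts in the comparisons of whole glands. Their levels were described in each gland by genotype and stage, in each group of cells defined by markers, and in bulk RNA of whole glands.

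Single-cell RNA of dissociated glands was measured by Drop-seq, in which cells are captured in droplets with barcoded beads and each transcript is counted once by its unique molecular identifier (UMI). Of the 26 Drop-seq glands, each from 1 mouse, 12 were controls (6 at each of P40 and P90) and 14 were double mutants (7 at each stage), with females and males in each group. RNA and antibody tags were measured together by CITE-seq in 2 control glands, labelled male and female, and 2 double-mutant glands, both labelled female, at P70, and bulk RNA was read from a single gland per genotype, the control at P70 and the double mutant at P100. All mice, controls included, had K14-Cre together with an EYFP reporter at R26 that Cre switches on. Double-mutant mice carried in addition a gain-of-function allele of β-catenin and loss-of-function alleles of Bmpr1a, and all mice had a C57BL/6 background. K14-Cre is active in basal epithelial cells. Drop-seq cells were live single cells sorted by flow cytometry and fixed in methanol, CITE-seq cells were prepared without delay with a few human HEK cells added, and bulk RNA was extracted from fresh whole glands.

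Plasma cells of salivary glands make mainly dimeric IgA, which is built from a heavy chain, a light chain and the J chain that joins the units. The polymeric immunoglobulin receptor binds the J chain-containing antibody at the basolateral side of epithelial cells, crosses the cell in vesicles and is cut at the apical side, where the secretory component leaves with the antibody into saliva. The plasma cell and the epithelial cell thus express different genes of the same route.

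The genes of both ends of the route are shown by the sequence around the start of transcription, with Jchain for the plasma cell side and Pigr for the epithelial side. RefSeq sequences of build GRCm38.p6 were at hand for 2 of the 6 genes, from 250 bases before to 50 bases after the start. Both are written 5′ to 3′ on the strand of the gene, and capitals mark the motifs that were searched. The Pigr window was chr1:130826434-130826733 on the plus strand, and the Jchain window was chr5:88527848-88528147 on the minus strand.
Pigr: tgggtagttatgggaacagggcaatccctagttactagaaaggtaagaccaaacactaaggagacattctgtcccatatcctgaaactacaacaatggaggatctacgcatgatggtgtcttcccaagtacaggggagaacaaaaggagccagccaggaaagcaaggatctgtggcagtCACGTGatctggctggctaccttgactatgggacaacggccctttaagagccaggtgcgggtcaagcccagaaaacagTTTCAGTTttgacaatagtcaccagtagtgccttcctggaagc
Jchain: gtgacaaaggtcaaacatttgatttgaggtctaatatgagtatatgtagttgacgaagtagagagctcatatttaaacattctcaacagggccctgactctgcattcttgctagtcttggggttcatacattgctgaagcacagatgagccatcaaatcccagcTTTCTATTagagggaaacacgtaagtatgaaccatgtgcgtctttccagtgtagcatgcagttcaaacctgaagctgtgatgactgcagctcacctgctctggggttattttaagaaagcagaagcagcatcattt
The E-box CACGTG, a sequence read by USF factors, occurred in the Pigr window with its first base at position -71 from the start, and in 7.15% of 32851 RefSeq promoter windows of the same length. The core AANNGAAA, read by interferon regulatory factors and searched on both strands, matched the Pigr window as TTTCAGTT at position 7 after the start and the Jchain window as TTTCTATT at position -86. It occurred in 23.9% of the 32851 windows. The E-box was not found in the Jchain window, and the motifs did not overlap.

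Each Drop-seq gland gave 650301 to 6994504 UMIs from 606 to 1209 cells that passed the limits, 23346 cells in all, and each CITE-seq gland gave 670322 to 2205865 UMIs from 497 to 728 cells. Double-mutant glands were often shallower, with median UMIs per cell of 408.0 to 4036.0 against 843.0 to 4671.0 in controls. Of all cell barcodes, 20 occurred in more than 1 library, and no pair of libraries shared more than 1. The transcripts of Xist and of Y-linked genes went against the sex label in 2 Drop-seq libraries. Double-mutant P40 replicate 1, labelled male, held 591 Xist UMIs and 1 UMI of Y-linked genes, and double-mutant P90 replicate 5, labelled female, held 0 and 194. All 4 CITE-seq libraries held both Xist (151 to 193 UMIs) and Y-linked UMIs (14 to 71). Of the Drop-seq libraries double-mutant P90 replicate 4 had the highest share of ribosomal protein UMIs (8.71%). Results were computed with and without these Drop-seq libraries.

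Transcripts of the light chain, the alpha chain, the J chain and Mzb1 were higher in double-mutant than in control glands, whereas Ighm and Pigr did not pass the test. In edgeR's quasi-likelihood test over the 26 glands, with sex and stage as covariates, 4 of the 6 genes had an adjusted p under 0.05, all 4 higher in double mutants. Of all 10488 genes tested, 22.0% were called, and 14.4% were called higher in double mutants. Levels in a gland are given as CPM, the UMIs of a gene scaled to the same total in every gland.

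Igkc encodes the constant part of the kappa light chain of antibodies. Its level in control glands at P40 ran from 0.715 through a median of 6.58 to 405 CPM, and at P90 from 1.19 through 305 to 451 CPM. In double-mutant glands it ran from 489 through 1667 to 4437 CPM at P40 and from 546 through 2732 to 7212 CPM at P90. All 14 double-mutant glands stood above the highest control gland. Igkc was 1 of 10 genes (0.0953% of the 10488) for which this was so, and at P40 and P90 taken alone the shares of genes without overlap in this direction were 2.23% and 0.973%. The means were 2812 ± 2038 CPM (SD, n = 14) and 187 ± 189.8 CPM (SD, n = 12), and the log2 fold change was 3.74 ± 0.74 (SE, edgeR adjusted p = 0.00137).

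Igha, the heavy chain constant gene of IgA, was likewise low in most control glands at P40. Control glands held 0.286 to 403 CPM at P40 (median 3.43) and 0.595 to 578 CPM at P90 (median 305). Double-mutant glands held 239 to 4639 CPM at P40 (median 1173) and 286 to 8261 CPM at P90 (median 2483). Here the groups overlapped, with 12 of 14 double-mutant glands above the highest control, and the log2 fold change was 3.62 ± 0.83 (SE, edgeR adjusted p = 0.00399).

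Ighm, the heavy chain constant gene of IgM, was a rare transcript. It reached 0 to 10.3 CPM in control glands (median 2.71, n = 12) and 2.52 to 41.4 CPM in double-mutant glands (median 7.28, n = 14). Only 5 of 14 double-mutant glands exceeded the highest control. The log2 fold change of 0.99 ± 0.45 (SE) did not pass the test (edgeR adjusted p = 0.110, interval 0.08 to 1.89 on the log2 scale). Without the normalization for composition it was 1.74 with an adjusted p of 0.0191.

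Jchain, which links IgA into dimers, ran in control glands from 0 to 175 CPM at P40 (median 0.609) and from 0 to 287 CPM at P90 (median 170.3). In double-mutant glands it ran from 145 to 1581 CPM at P40 (median 567) and from 110.4 to 1838 CPM at P90 (median 1003). The level was above every control in 11 of 14 double-mutant glands, with a log2 fold change of 3.15 ± 0.82 (SE, edgeR adjusted p = 0.00914).

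Mzb1 assists the folding and secretion of antibody chains and was detected at low levels. Control glands held 0 to 9.77 CPM (median 0.416), with 3 of 12 glands at 0 UMIs, and double-mutant glands held 0 to 35.4 CPM (median 13.9), with 1 of 14 at 0. A count of 0 allows up to 3 UMIs in that gland. At P40 all 7 double-mutant glands were above all P40 controls, and over both stages 9 of 14 were. The log2 fold change was 2.88 ± 0.61 (SE, edgeR adjusted p = 0.00235).

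Pigr was the only one of the 6 genes that every control gland expressed at more than 100 CPM. Control glands held 153 to 574 CPM at P40 (median 286) and 115 to 299 CPM at P90 (median 157). Double-mutant glands held 158 to 644 CPM at P40 (median 404) and 129 to 2074 CPM at P90 (median 397). At P90 5 of 7 double-mutant glands lay above all P90 controls, and the highest were replicate 6 at 2074 CPM and replicate 5 at 1380.2 CPM, while at P40 only 1 of 7 did. Over both stages the log2 fold change was 0.35 ± 0.41 (SE, edgeR adjusted p = 0.549, interval -0.46 to 1.16). It was -0.03 when double-mutant P90 replicate 6 was left out and 1.07 (adjusted p = 0.0304) without the normalization for composition.

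**Figure D1:**
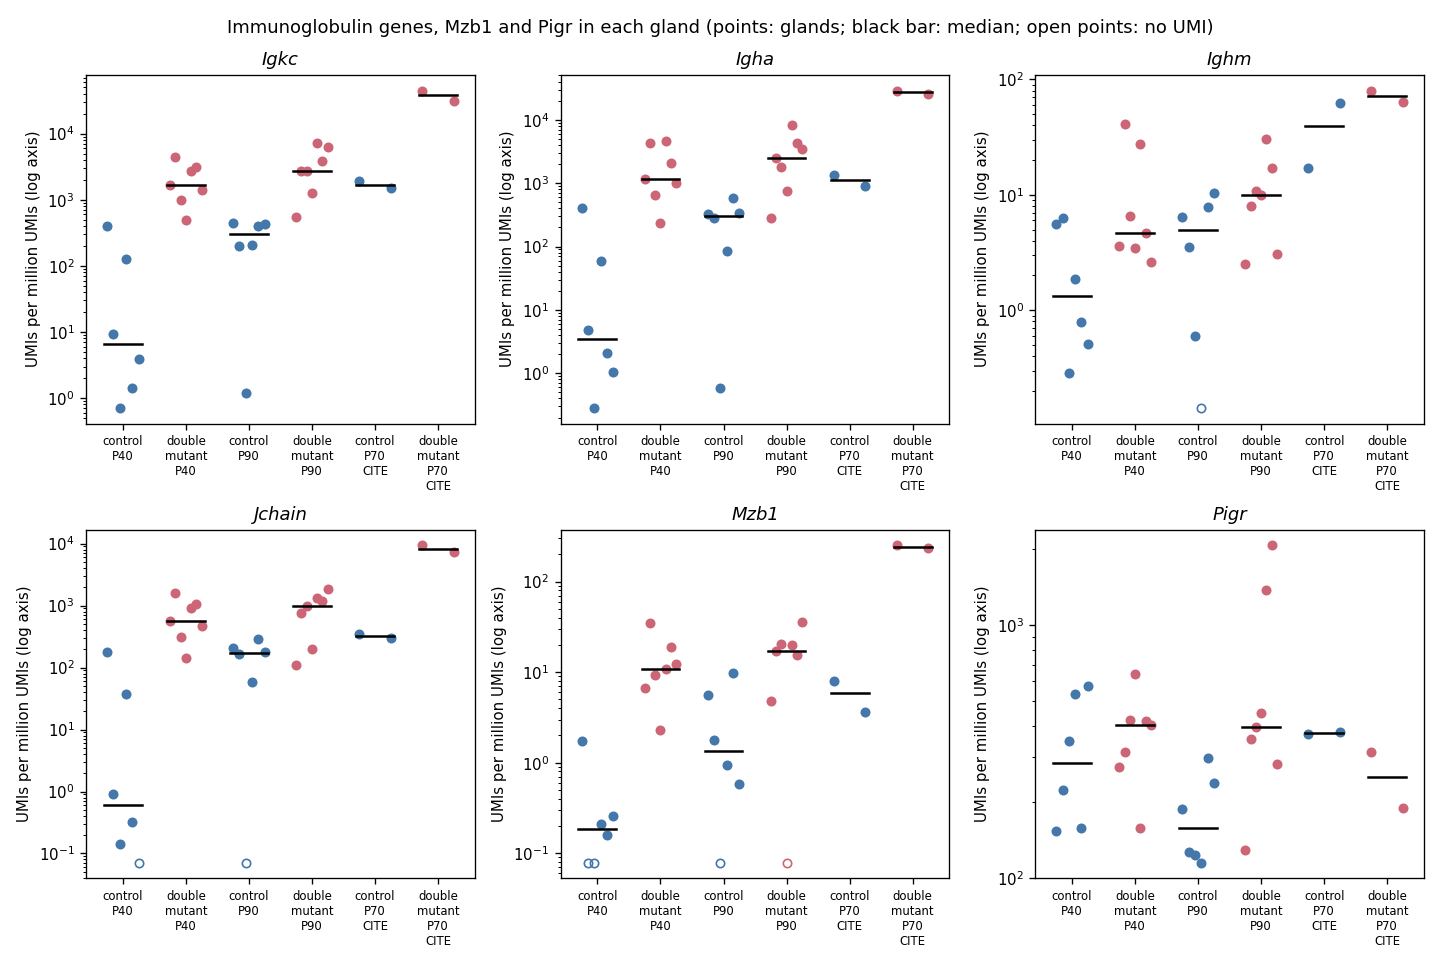
Level of each of the 6 genes in every gland, as CPM on a log axis, with 1 point per gland, a black bar at the median, open points for glands without a UMI and the 6 groups of Drop-seq and CITE-seq glands along the horizontal axis. Igkc separates the genotypes within each experiment, and Pigr overlaps except for double-mutant glands such as P90 replicate 6 at 2074 CPM.

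The calls for Igkc, Igha, Jchain and Mzb1 held when any 1 of the 26 glands was left out, and without the 2 libraries that went against their sex labels (adjusted p from 0.00276 for Igkc to 0.0141 for Jchain). Library size alone, without the TMM factors for composition, shifted the median log2 fold change of all genes from 0.02 to 0.68 and the share of higher genes among those called from 65.6% to 99.1%. Relative to that shift the 4 genes kept their direction, with log2 fold changes of 3.39 to 4.29. In the 5 batches that held both genotypes, by the batch number in the sample titles, Igkc, Igha and Ighm were higher in double mutants in 5, Jchain and Mzb1 in 4, and Pigr in 3. The exception for Jchain (201 against 231 CPM) and Mzb1 (0 against 5.17 CPM) was batch 9, whose only double-mutant gland was P90 replicate 4. With batch in place of stage in the fit, the adjusted p-values from edgeR were 0.0413 for Igkc, 0.0362 for Igha and 0.0390 for Mzb1. Jchain, at 0.0606, lost its call at a log2 fold change of 3.65 ± 1.14 (SE). In batches 12 and 13 all controls were at P40 and the double mutants were of both stages, so stage and genotype mix there.

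Within P40, Igkc (log2 fold change 4.57 ± 1.10, SE, adjusted p = 0.0355) and Mzb1 (4.57 ± 0.94, adjusted p = 0.0170) were higher in double mutants in the edgeR test. Both are among the 1.36% of 11420 genes that were called at this stage (1.29% called higher). Igha (4.58 ± 1.23, adjusted p = 0.0563) and Jchain (4.41 ± 1.19, adjusted p = 0.0571) had similar estimates just outside the threshold, and Ighm (1.40, adjusted p = 0.200) and Pigr (-0.52, adjusted p = 0.546) were further from it. Without control P40 replicate 1, the control gland with the highest antibody transcripts at this stage, Igha was at 6.25 (adjusted p = 0.0178) and Jchain at 5.79 (adjusted p = 0.0250). The Igkc call was lost without any 1 of 8 glands, 4 of each genotype (4.18 to 4.88, adjusted p up to 0.104), and the Mzb1 call without any 1 of control P40 replicates 3, 4, 5 and 6 (4.32 to 4.55, up to 0.0639).

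Within P90 none of the 6 genes passed, against 8.07% of 11420 genes called. In edgeR 4 of them had an unadjusted p under 0.05, and DESeq2 called 2, Igkc and Igha. The log2 fold changes were 2.99 ± 0.99 for Igkc (SE, adjusted p = 0.0599), 2.79 ± 1.09 for Igha (0.104), 2.06 ± 1.04 for Jchain (0.204), 1.88 ± 0.75 for Mzb1 (0.112), 1.24 ± 0.51 for Pigr (0.123) and 0.52 ± 0.63 for Ighm (0.634). The estimates of Igkc, Igha, Jchain and Mzb1 were thus smaller at P90 than at P40, and the difference between the stages was itself tested. It did not pass for any of the 6 genes (edgeR adjusted p of 0.801 to 0.984, with 0.00876% of 11420 genes called), although the unadjusted p was 0.0377 for Mzb1 (-2.69 ± 1.23) and 0.0200 for Pigr (1.76 ± 0.71), and DESeq2 called none of the 6. Without the filter on low counts, where the SEs were 0.45 to 0.61, edgeR called it for Jchain (-2.33, adjusted p = 0.00101), Mzb1 (-2.66, adjusted p = 0.00461) and Pigr (1.77, adjusted p = 0.0200). Without control P90 replicate 5, Mzb1 at P90 was at 3.07 (adjusted p = 0.0241). The Pigr estimate, alone among the 6, was negative at P40 and positive at P90.

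Between P40 and P90 none of the 6 genes passed the test within either genotype. No batch held controls of both stages, so stage and batch cannot be told apart in controls. No plasma cell-like cell, as described below, was found in 4 of 6 controls at P40 and in 1 of 6 at P90. In controls the median was 6.58 and 305 CPM for Igkc, 3.43 and 305 CPM for Igha and 0.609 and 170.3 CPM for Jchain at P40 and P90. The edgeR estimates were 2.19 ± 1.05 for Igkc (SE, adjusted p = 0.273), 2.27 ± 1.17 for Igha (0.317), 2.71 ± 1.17 for Jchain (0.207), 3.09 ± 1.05 for Mzb1 (0.0862), 0.67 ± 0.67 for Ighm (0.681) and -1.39 ± 0.53 for Pigr (0.142). Against these, 5.04% of 11420 genes were called, while 4 of the 6 had an unadjusted p under 0.05 and DESeq2 called Mzb1 (adjusted p = 0.0174). Single glands changed the calls, since Igha (3.93, adjusted p = 0.0465) and Jchain (4.07, adjusted p = 0.0457) passed without control P40 replicate 1 and Mzb1 (3.13, adjusted p = 0.0414) passed without double-mutant P90 replicate 4. In double mutants the estimates were 0.60 for Igkc, 0.48 for Igha, 0.41 for Mzb1, 0.38 for Pigr, 0.35 for Jchain and -0.22 for Ighm (adjusted p of 0.855 to 0.944), and edgeR called 0% of all 11420 genes, of which 1122 had an unadjusted p under 0.05 and DESeq2 called 28. The difference between these changes in both genotypes is the interaction given above, which rests on the same controls and shares their limit of batch.

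Males and females did not pass the test for any of the 6 genes (edgeR adjusted p of 0.702 to 0.997, no unadjusted p under 0.05, none called by DESeq2), against 0.362% of 10488 genes called. Igkc had the estimate furthest from 0, at -1.09 ± 0.67 (male against female, SE, interval -2.42 to 0.24), and the others were -0.94 for Jchain, -0.67 for Igha, -0.51 for Mzb1, -0.21 for Ighm and -0.02 for Pigr. The test used the sex labels, which 2 libraries went against. One of them, double-mutant P90 replicate 5, labelled female, had the highest Igkc (7212 CPM) and Igha (8261 CPM) of the Drop-seq glands. With any 1 gland left out the Igkc estimate was -1.47 to -0.88, and it was never called. Without the plasma cell-like cells described below, the sign of the sex estimate turned for Igkc (0.40), Igha (0.67) and Jchain (0.44).

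The double-mutant CITE-seq glands at P70 held the highest levels of the antibody transcripts. Igkc reached 44649 and 31191 CPM in the double-mutant glands, against 1900.5 and 1488 CPM in the controls. Igha reached 28815 and 25522 CPM against 1364 and 893 CPM, Jchain 9338 and 7335 CPM against 353 and 300.1 CPM, and Mzb1 251 and 236 CPM against 8.01 and 3.63 CPM. Even the CITE-seq controls exceeded every Drop-seq control for Igkc, Igha and Jchain, and the stage, the fixation, the antibody staining, the upper limit on genes per cell and the batch all differed between the experiments and cannot be told apart.

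For 5 of the 6 genes both CITE-seq double-mutant glands were above both controls, an arrangement that 63.7% of 10058 genes showed. In edgeR 4 genes were called higher and Pigr lower, 5 of 6 against 13.7% of all genes (9.24% called higher). The log2 fold changes were 3.79 ± 0.42 for Igkc (SE, adjusted p = 0.00317), 3.89 ± 0.40 for Igha (0.00203), 3.97 ± 0.35 for Jchain (0.00102) and 4.70 ± 0.39 for Mzb1 (0.000779). Ighm, at 79.9 and 64.1 against 17.2 and 62.1 CPM, was at 0.14 ± 0.53 (adjusted p = 0.879). Pigr was at 315 and 189 CPM in double mutants against 373 and 377 CPM in controls, a log2 fold change of -1.26 ± 0.33 (adjusted p = 0.0407). That call was lost when any 1 of the 4 glands was left out (adjusted p of 0.0551 to 0.235) and with library size alone (-0.55, adjusted p = 0.199), a setting in which the median of all genes moved to 0.73 and the share of higher genes among those called from 67.4% to 96.5%.

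The bulk libraries held 34515744 reads on genes in the control and 34729551 in the double mutant, from glands of different ages and with no replicate. Reads per length allow levels of different genes to be compared, as TPM, read counts divided by gene length and scaled to the same total in each library. In the control gland Igkc was at 684 TPM, Igha at 184, Pigr at 129, Jchain at 44.9, Ighm at 5.89 and Mzb1 at 1.85. In the double-mutant gland the order was the same except that Pigr (57.1 TPM) stood behind Jchain (156 TPM), with Igkc at 2272, Igha at 597, Ighm at 10.3 and Mzb1 at 8.22 TPM. The ratio of double mutant to control was 3.32 for Igkc, 3.24 for Igha, 3.48 for Jchain, 4.43 for Mzb1, 1.74 for Ighm and 0.442 for Pigr. Counted as CPM, the 95% intervals of these ratios were 3.21 to 3.34 for Igkc and 0.425 to 0.447 for Pigr, which cover counting error only. The median log2 CPM ratio of all genes was -0.312. Mzb1 was the 1 gene of the 6 past 4-fold, against 3.34% of 13927 genes. In bulk RNA fewer cells of a type and less RNA per cell cannot be told apart.

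Of the other heavy chain genes, Ighg1, Ighg2c and Ighg3 differed more than Igha between the bulk libraries. Ighg1 had 55 and 628 reads, Ighg2c 182 and 1316 and Ighg3 6 and 215 in the control and the double mutant, TPM ratios of 11.5, 7.29 and 36.1 between these 2 libraries. Ighg2b, with 410 and 1327 reads and a ratio of 3.26, lay close to Igha, and Ighd had 5 reads in each. These genes share long near-identical stretches, and how reads with several matches were counted is not given in the sources used here, so their separate values are uncertain. At mm10 coordinates Igha (chr12:113254830-113260236) and Ighm (chr12:113418558-113422730) lie on the minus strand of the heavy chain locus, Igkc at chr6:70726435-70726966 and Pigr at chr1:130826684-130852249 on the plus strand, and Jchain at chr5:88519809-88527891 on the minus strand. Each value sums reads over the exons of the gene.

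The cells were grouped by clustering without the 6 genes, Igll1 and the other immunoglobulin constant, variable and joining genes (223 genes held out), so that the levels of the 6 genes in the groups were not used to form them. A cluster of 219 cells held 16 of the plasma cell markers, which are also genes of the plasma cell list used below, and its leading genes were Slpi, Ly6c2, Ccr10, Tnfrsf17 and Pou2af1. It is called plasma cell-like, although Vpreb3 and Cd79b, genes of the B lineage, were also among its 10 leading genes. Of these cells 153 came from Drop-seq glands, 11 from controls and 142 from double mutants, and 66 from CITE-seq glands, 7 and 59.

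The 153 Drop-seq plasma cell-like cells were 0.655% of the cells and held 94.8% of the Igkc, 94.3% of the Igha, 96.4% of the Jchain and 97.0% of the Mzb1 UMIs. In glands with at least 10 such cells, all of them double mutant, Igkc averaged 264759 ± 32784 CPM of the cells' own UMIs (SD, n = 5), Igha 218284 ± 60331, Jchain 76349.9 ± 17779.7 and Mzb1 1445 ± 599.9. The next group for Igkc were fibroblast-like cells at 2237 ± 7378 CPM (n = 14), then basal-like cells at 1119.6 ± 4869 CPM (n = 21). Only the gap below the plasma cell-like cells exceeded the larger SD of the neighbours, for Igkc, Igha, Jchain and Mzb1 alike, and the order among the other types was not resolved. A UMI of Igkc was found in 98.0% of plasma cell-like cells (median depth 1519 UMIs) and in 5.21% of acinar-like cells (median depth 3781 UMIs), which do not make antibody. At 500 UMIs per cell these shares were 98.6 and 0.743%.

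The plasma cell-like share of the cells was higher in double-mutant glands. It was 0 to 0.266% in controls (median 0.106%), with none found in 5 of 12 glands, and 0.0937 to 4.41% in double mutants (median 0.994%). The share was above every control in 12 of 14 double-mutant glands. The means were 1.17 ± 1.08% (SD, n = 14) and 0.104 ± 0.103% (SD, n = 12), a difference of 1.07 percentage points with a permutation p of 2.00e-05, the smallest that 100000 resamples can give (two-sided). Within P40 the shares were 0.928 ± 0.524% and 0.0353 ± 0.0551% (two-sided exact permutation p = 0.00117), and within P90 1.42 ± 1.45% and 0.173 ± 0.0953% (exact permutation p = 0.0210). Within the 5 mixed batches the share was higher in double mutants in 4, by 0.922 to 2.47 points, and in batch 9 it differed by -0.0213 points (exact permutation p = 0.00694 over 1728 arrangements of 19 glands). Stage was not held fixed within these batches. In CITE-seq the shares were 5.80 and 4.43% against 0.446 and 0.549%.

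A gate on 8 plasma cell genes in place of the clusters gave a difference of 0.282 points (permutation p = 0.158), which did not pass. In the 5 controls without a plasma cell-like cell, the cells sequenced allow shares of up to 0.262 to 0.467%, so rarer cells would not have been detected.

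**Figure D2:**
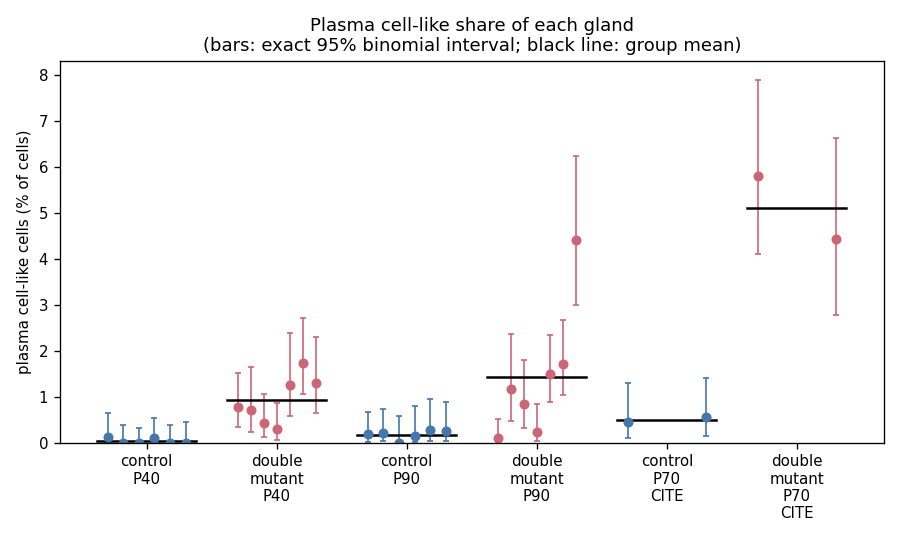
Plasma cell-like cells as a percentage of the cells of each gland, with 1 point per gland by group, bars for the exact 95% binomial interval and a black line at the group mean. The 7 double-mutant P40 glands lie above all P40 controls, and double-mutant P90 replicate 7 reaches 4.41%.

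Within a plasma cell-like cell the antibody genes took most of the transcripts. Igkc, Igha, Ighm and Jchain together gave a median of 1047 UMIs, or 59.3% of the UMIs of the cell (quartiles 51.8 and 64.1%). The median cell held 476 Igkc, 398 Igha, 147 Jchain and 3 Mzb1 UMIs, and Mzb1 was found in 74.9% of the 219 cells. Pigr was found in 5 cells.

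IgA dominated. Igha gave 99.4% of the heavy chain constant UMIs and was the leading heavy chain gene in 216 of the 219 cells. In 1 cell of control P70 replicate 2 the leading gene was Ighm, with 111 UMIs beside 476 Igkc and 85 Jchain UMIs and no Igha. In 1 cell of double-mutant P90 replicate 7 it was Ighg2b, with 403 UMIs beside 3 of Igha. A single remaining cell held no heavy chain UMI. Ighg1 had 0 UMIs in these cells, whereas bulk RNA of the double-mutant gland held 628 Ighg1 reads.

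The light chain was kappa in 208 cells and lambda in 10. Lambda led in 7 of the 201 cells of double-mutant glands and in 3 of the 18 cells of control glands, and the difference was not tested. Lambda genes gave 8.58% of the light chain constant UMIs. In the cells led by lambda the median was 1265 lambda and 4.5 Igkc UMIs, and in the cells led by Igkc the median lambda share was 0.670%. Iglc1, Iglc2 and Iglc3 resemble each other and were summed.

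**Figure D3:**
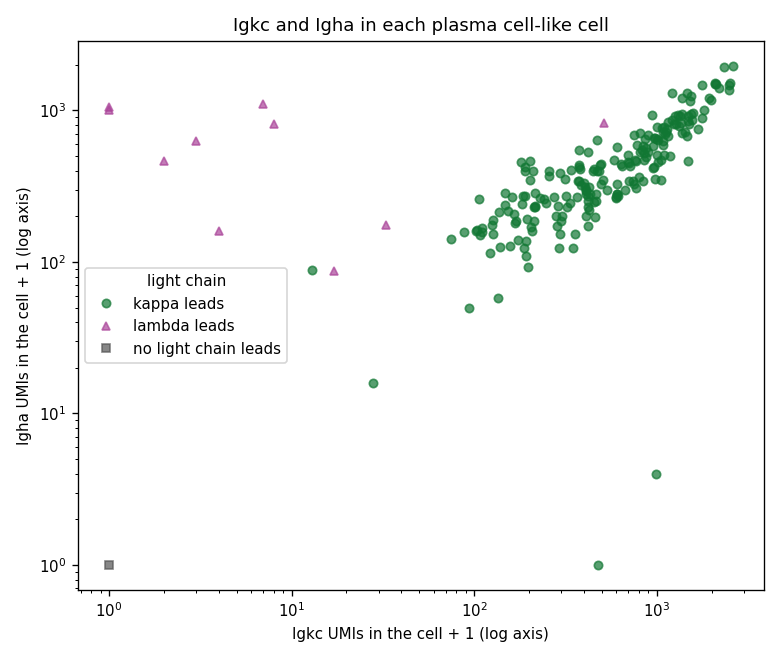
Igkc against Igha UMIs in each of the 219 plasma cell-like cells, both plus 1 on log axes, colored by the light chain that leads. The 208 kappa-led cells run from 12 to 2605 Igkc UMIs, and of the 10 lambda-led cells 9 hold under 100 Igkc UMIs and 1 holds 514.

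The cells differed in their variable genes. Of the 219 cells, 94 held at least 3 UMIs of a heavy chain variable gene, and these were led by 44 different genes, most often Ighv1-82 (12 cells of 4 glands). For kappa, 120 cells were led by 44 different genes, most often Igkv10-96 (9 cells of 7 glands). Both chains could be read in 72 cells, which fell into 62 combinations of gland, heavy and kappa gene. In 8 of these, 18 cells in all, a combination occurred more than once, and all 8 were in the CITE-seq double-mutant glands. Those glands held 37 and 22 of the 219 cells. The part of cell number, depth and chance in the repeats was not tested. Ighv1-82 with Igkv14-111 was found in 3 cells of double-mutant P70 replicate 1, and Ighv1-64 with Igkv4-61 in 3 cells of double-mutant P70 replicate 2. Counts at the 3′ end hold few variable gene UMIs, and no junction was read.

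Antibody tags were read on the CITE-seq cells, as counts of tags bound to surface proteins. The tag for MHC class II (I-A/I-E) gave 2.75% of the antibody counts of plasma cell-like cells in double-mutant P70 replicate 1 against 22.4% in its other cells, and 1.28% against 13.3% in replicate 2. In the controls, with 3 and 4 plasma cell-like cells, it gave 8.30% against 7.73% and 2.13% against 13.3%.

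Igkc was also found outside these cells, and more so in double-mutant glands. Summed over the 26 glands, cells other than plasma cell-like ones held 9.44 CPM in controls and 119.7 CPM in double mutants. By gland the range was 0.589 to 145 CPM in controls (median 3.0) and 11.6 to 926 CPM in double mutants (median 122). All 14 double-mutant glands were above the control median, and 6 were above the highest control. The exception among controls was P90 replicate 6 at 145 CPM, since the other controls at P90 and P40 reached at most 9.41 CPM. With the plasma cell-like cells removed, the edgeR log2 fold changes were 3.58 for Igkc (adjusted p = 0.00132), 3.90 for Igha (0.000875) and 3.56 for Jchain (0.000316), and Mzb1 fell under the filter on low counts.

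In those other cells of double-mutant Drop-seq glands the ratios among Igkc, Igha and Jchain were near those of plasma cell-like cells, though outside their counting error. In double mutants there were 83.9 Igha UMIs per 100 Igkc UMIs outside (95% interval 80.1 to 88, counting error only) and 73.6 inside (72.8 to 74.4), and 22 Jchain UMIs per 100 Igkc outside against 30.6 inside. Acinar-like cells, which should lack these genes, held 82.1 Igha and 25.8 Jchain UMIs per 100 Igkc, and macrophage or monocyte-like cells 161 Igha (139 to 187) and 25.3 Jchain. In control Drop-seq glands, with 11 plasma cell-like cells, Igha differed in the other direction, at 69.9 per 100 Igkc outside (59.4 to 82.0) and 92.6 inside. Jchain was further apart there, at 20.8 outside (16.1 to 26.6) and 50.3 inside. The Igkc level of the other cells and the share of plasma cell-like cells were both higher in double mutants. The part of free RNA in these UMIs was not tested.

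A few cells outside the cluster held many antibody UMIs. Of 25662 other cells, 35 held at least 20 UMIs of Igkc, Igha, Ighm and Jchain together, and 32 of the 35 came from double-mutant glands. Of them, 14 were in a cluster led by Mucl1, 5 were acinar-like, 4 macrophage or monocyte-like and 3 fibroblast-like. Without these 35 cells the Igkc level outside was 45.4 CPM in double mutants and 3.70 CPM in controls of the Drop-seq glands. Doublets were not removed, and their part was not tested.

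Ighm had another distribution. Of the 352 Ighm UMIs in Drop-seq cells, 77.0% were in macrophage or monocyte-like cells and 11.6% in T/NK-like cells, and plasma cell-like cells held 8. In CITE-seq cells the plasma cell-like cells held 151 of 298 Ighm UMIs, of which 111 were in the single IgM-led cell of control P70 replicate 2. By gland the level was 102 ± 49.7 CPM in macrophage or monocyte-like cells (SD, n = 24) and 122 ± 80.4 CPM in T/NK-like cells (n = 15), which did not differ beyond their spread, and the next type, pericyte or smooth muscle-like cells, was lower than both by more than the spread. In macrophage or monocyte-like cells Ighm stood at 97.1 ± 54.0 CPM in controls (n = 10) and 106 ± 48.2 CPM in double mutants (n = 14), so that the genotypes overlapped.

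Of 3178 macrophage or monocyte-like cells in all libraries, 307 held an Ighm UMI, at most 5 in a cell, and 271 of the 307 held no Igkc. In Drop-seq the share was 8.56% (median depth 634 UMIs), against 0.0965% of acinar-like cells (median depth 3781 UMIs). Per 100 Igkc UMIs, double-mutant macrophage or monocyte-like cells held 66.3 Ighm UMIs (54.9 to 80.0), whereas plasma cell-like cells held 0.0111. B cell transcripts were sparse in all cells, with 23 UMIs of Ms4a1, 47 of Cd79a and 17 of Ighd, and macrophage or monocyte-like cells held 10 of Ms4a1, 1 of Cd79a and 5 of Ighd. No group of cells with B cell markers was found.

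Pigr was expressed by luminal and acinar epithelial cells. The highest level was found in an unnamed cluster led by Muc19, a salivary gel-forming mucin gene, at 4092 ± 2118 CPM (SD, n = 14 glands, 519 cells). Luminal Dcpp1+-like cells followed at 1547 ± 1359 CPM (n = 14), luminal Clu+-like cells at 954 ± 988 CPM (n = 12) and acinar-like cells at 352 ± 408 CPM (n = 26). Between these came clusters led by Gm12873 (459 ± 713 CPM) and by Mucl1 (441 ± 526 CPM). The paper's staining placed Muc19-positive cells in the sublingual gland, which borders the submandibular gland. Muc19-led cells were found in 6 of 12 control and 10 of 14 double-mutant Drop-seq glands and in 0 CITE-seq glands. Whether they came from sublingual tissue was not tested.

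Ductal cells held less Pigr, with 267 ± 325 CPM in Smgc+/Esp4+-like cells (n = 20), 180.1 ± 597 CPM in Klk1+-like cells (n = 25) and 28.5 ± 59.0 CPM in Egf+-like cells (n = 18). Without double-mutant P90 replicate 5, one of the libraries against their sex labels, which was at 2931 CPM, Klk1+-like cells were at 65.5 ± 171 CPM. Without double-mutant P90 replicate 6, at 258 CPM, Egf+-like cells were at 15 ± 15.2 CPM. Basal-like cells were at 46.4 ± 70.3 CPM (n = 21), ductal progenitor-like cells at 43.7 ± 53.2 CPM (n = 23) and plasma cell-like cells at the lowest level of 20.3 ± 34.8 CPM (n = 5), or 5.31 without double-mutant P40 replicate 7. Only the gap between the Muc19-led and the Dcpp1+-like cells, 2545 CPM, was larger than the SD of both. All other neighbours in the order differed by less than their spread.

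A Pigr UMI was found in 93.1% of Muc19-led cells at a median depth of 1227 UMIs, in 85.2% of Dcpp1+-like cells (4139 UMIs), 46.0% of acinar-like cells (3781 UMIs) and 32.6% of Clu+-like cells (956 UMIs), against 1.96% of plasma cell-like cells (1519 UMIs) and 3.99% of macrophage or monocyte-like cells (634 UMIs), which should lack the gene. Over all Drop-seq glands the shares in Klk1+-like (3.32%), progenitor-like (3.20%), basal-like (2.52%) and Egf+-like cells (2.18%) did not exceed that of macrophage or monocyte-like cells and were read as background. In double-mutant glands alone the share was 4.70% of Klk1+-like cells (1278 UMIs) and 4.06% of progenitor-like cells (1140.5 UMIs) against 3.56% of macrophage or monocyte-like cells (570.0 UMIs). After thinning each cell to 500 UMIs the shares in Muc19-led, Dcpp1+-like, acinar-like, Clu+-like and plasma cell-like cells were 79.6, 37.9, 10.5, 22.1 and 0.462%, so that Clu+-like cells came before acinar-like cells at equal depth, as they did in CPM. Shallower cells were left out of the thinned shares, 53, 14, 68, 138 and 5 cells.

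**Figure D4:**
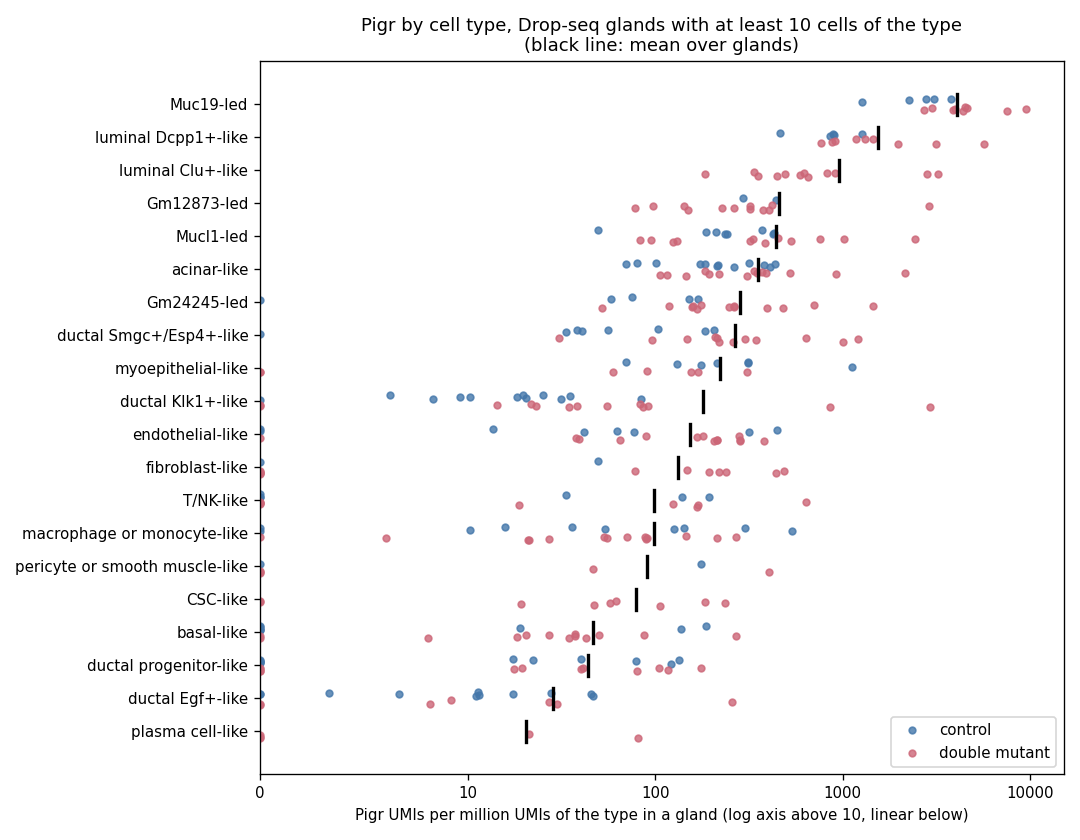
Pigr CPM of each cell type in a gland (log axis above 10, linear below), with 1 point per Drop-seq gland that held at least 10 cells of the type, colored by genotype, and a black line at the mean over glands. Muc19-led cells are highest at a mean of 4092 CPM, and plasma cell-like cells are lowest at 20.3 CPM.

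The cells that held the Pigr transcripts of a gland differed from gland to gland. Over all Drop-seq cells 34.4% of Pigr UMIs were in acinar-like cells, 33.7% in Dcpp1+-like cells, which were 6.39% of cells, and 12.6% in Muc19-led cells, which were 2.22% of cells. The acinar-like part of a gland's Pigr ran from 16.4 to 95% in controls (median 57.5%) and from 3.60 to 81.6% in double mutants (median 13.6%). That part depends on the naming of clusters. The Gm12873-led and Mucl1-led clusters shared leading genes such as Scgb2b2 with acinar-like clusters but were counted apart. Their medians were 0.0204 and 2.23% in controls and 5.73 and 3.62% in double mutants. The Dcpp1+-like part ran from 0 to 73.4% in controls and from 0 to 50.9% in double mutants, with medians of 49.2 and 40.8% at P40 and 1.14 and 10.4% at P90.

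Clu+-like cells gave 0 to 0.806% of the Pigr UMIs of a control gland and 0.108 to 26.7% of those of a double-mutant gland (medians 0.0655 and 7.59%). Muc19-led cells gave 0 to 12.1% and 0 to 43.5% (medians 1.25 and 11.4%). Dcpp1+-like cells were present in 7 of 12 control and 10 of 14 double-mutant glands, and Clu+-like cells were 0 to 0.872% of control cells and 0.824 to 11.4% of double-mutant cells. In CITE-seq glands a cluster led by Mucl1 held 1102, acinar-like cells 587 and Clu+-like cells 105 of the 1958 Pigr UMIs. Without the Dcpp1+-like and Muc19-led cells the log2 fold change of Pigr over the Drop-seq glands was 0.08 (edgeR adjusted p = 0.897).

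**Figure D5:**
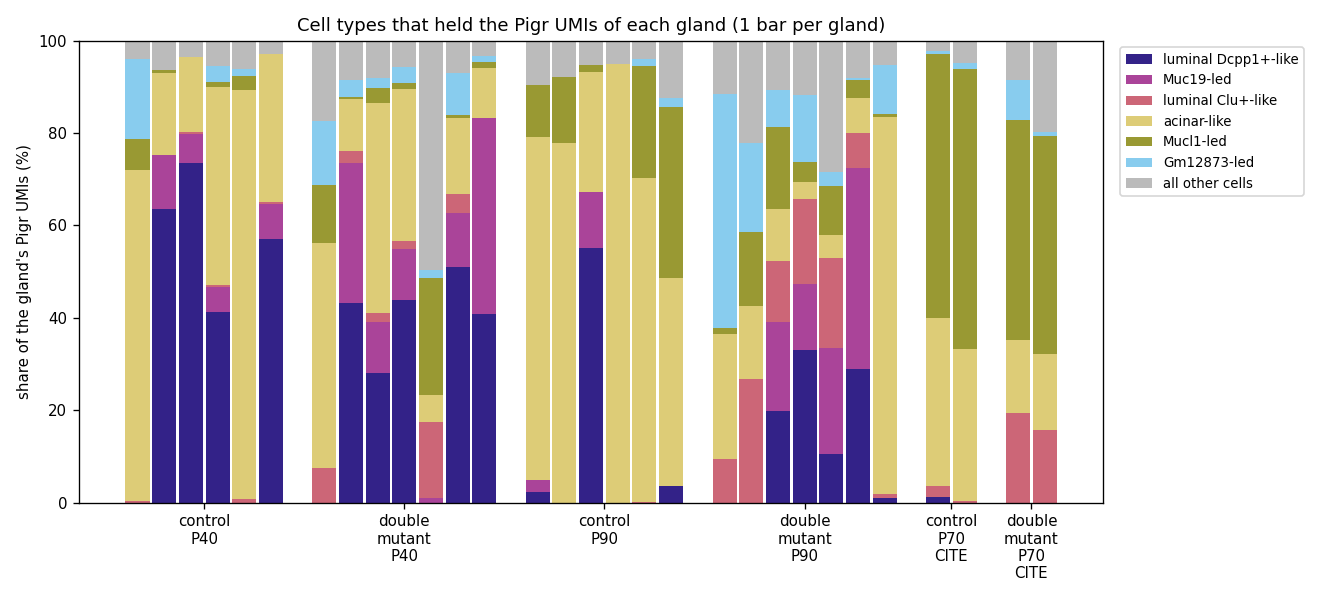
Share of the Pigr UMIs of each gland held by 6 cell types and by all other cells, with 1 stacked bar per gland, grouped by experiment, genotype and stage. Acinar-like cells hold a median of 57.5% in Drop-seq controls and 13.6% in double mutants, and Dcpp1+-like cells run from 0 to 73.4% in controls.

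Within a cell type the genotype difference of Pigr did not pass the test, with estimates above 0 in each of the 4 types where it reached the filter on low counts. Without the filter edgeR called it higher in double-mutant Klk1+-like cells (2.70, adjusted p = 1.87e-10), where 4 of 13 double-mutant glands stood above all controls, and lower in myoepithelial-like cells (-2.47, adjusted p = 0.0221). The Klk1+-like medians were 19.0 CPM in controls and 38.4 CPM in double mutants, and double-mutant P90 replicate 5 reached 2931 CPM. Double-mutant P90 replicate 6 was highest in T/NK-like (641 CPM) and fibroblast-like cells (488 CPM). Control P40 replicate 4 was highest in macrophage or monocyte-like cells (535 CPM). The part of free Pigr RNA in these values was not tested. In acinar-like cells the level was 69.4 to 434 CPM in controls (median 216, n = 12) and 106 to 2151 CPM in double mutants (median 323, n = 14), a log2 fold change of 0.56 ± 0.30 (SE, edgeR adjusted p = 0.553, interval -0.05 to 1.16). In these cells 0.878% of 3760 genes were called. In ductal Smgc+/Esp4+-like cells it was 0 to 205 CPM in controls (median 48.4, n = 8) and 30.5 to 1215 CPM in double mutants (median 240.4, n = 12), and 9 of 12 double-mutant glands were above the highest control. The estimate there was 1.71 ± 0.53 (SE, edgeR adjusted p = 0.176, interval 0.66 to 2.77), with 0.500% of 1000 genes called, and without control P40 replicate 4 it was 2.09 (adjusted p = 0.0340).

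In luminal Dcpp1+-like cells Pigr stood at 463 to 1271 CPM in controls (median 886, n = 5) and 769 to 5677 CPM in double mutants (median 1317, n = 9), with a log2 fold change of 0.53 ± 0.33 (SE, edgeR adjusted p = 0.907, interval -0.14 to 1.19; 0.690% of 2609 genes called). In Muc19-led cells it stood at 1267 to 3777 CPM (median 2799.5, n = 5) and 2726 to 9469 CPM (median 4412, n = 9), and 7 of 9 double-mutant glands were above all controls. The estimate was 0.60 ± 0.41 (SE, edgeR adjusted p = 0.844, interval -0.21 to 1.42), and 0% of 963 genes were called there, of which 70 had an unadjusted p under 0.05 and DESeq2 called none. With at least 20 cells per gland the estimate was 0.15 (adjusted p = 0.979). For Pigr the unadjusted p was under 0.05 only in the Smgc+/Esp4+-like cells, and DESeq2 called it in none of the 4 types. In Klk1+-like, Egf+-like, progenitor-like, basal-like and myoepithelial-like cells Pigr fell under the filter on low counts, and Clu+-like and CSC-like cells had no control gland with 10 cells. The controls of the Dcpp1+-like and Muc19-led comparisons were 4 glands at P40 and 1 at P90.

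Over the mean levels in 16 cell types, the genes most like Igkc in Pearson correlation of log2(CPM + 1) were Jchain (0.964), Igha (0.963), Iglc2 (0.915), Prg2 (0.910) and Stac2 (0.894), out of 15174 genes. For Pigr they were Scgb2b24 (0.901), Wfdc18 (0.873), Gfpt1 (0.864), Etv1 (0.849) and Slc6a14 (0.823). These are descriptions over 16 points that share libraries and depth, and the Igkc values rest on the single plasma cell-like point. Prg2 and Stac2 were highest in plasma cell-like cells too, at 31.4 and 11.2 CPM. Mzb1 was not among the 5.

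Around the 6 genes, lists of genes of the same system were followed in the 26 glands, in the fit that called 14.4% of all genes higher and 7.56% lower. Of the immunoglobulin constant genes, 5 of 12 were tested and 3 were higher in double mutants, Iglc2 (log2 fold change 4.28 ± 0.83, SE, edgeR adjusted p = 0.00113) beside Igkc and Igha. The median of the 5 was 3.62 against 0.02 over all genes. Of 13 tested plasma cell genes 4 were higher and 9 were not called, against 14.4% of all genes called higher, with a median of -0.20. The 4 were Slpi (4.47, adjusted p = 1.47e-05), an antiprotease that epithelia also secrete, the syndecan gene Sdc1 (1.94), which basal epithelium also expresses, Prdm1 (2.13), the plasma cell transcription factor Blimp-1, and Ly6c2 (2.28). Xbp1 (-0.20) and Fkbp11 (-0.94), genes of the secretory machinery that acinar cells share, had estimates that did not pass. None of 11 B cell genes reached the filter.

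Genes for homing and survival of antibody-secreting cells were higher in 5 of 6 tested cases (median 2.21), among them the adhesion molecule Vcam1 (2.65, adjusted p = 0.000213), the chemokine Cxcl12 (2.31, adjusted p = 0.00219), its receptor Cxcr4 (2.47, adjusted p = 0.00243) and Itga4 (2.12, adjusted p = 0.00241), the integrin chain that binds Vcam1. Ccl28, the epithelial chemokine that draws IgA plasma cells, was at 0.16 ± 0.31 (SE, adjusted p = 0.749). Fc receptor genes were higher in 5 of 6 (median 1.91), including Fcgr3 (2.07), Fcgr4 (3.0), Fcgr2b (2.66) and Fcer1g (1.59), which myeloid cells express. The myeloid share of the cells moved with genotype too, with 590 macrophage or monocyte-like cells in the control and 1993 in the double-mutant Drop-seq glands, and its part in these values was not tested.

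Genes of the vesicle route that carries Pigr across the cell were mostly not called. Of 18 tested, 5 were lower, 1 was higher and 12 were not called (median -0.17), where 22.0% of all genes were called and 7.56% were called lower. The kinase gene Lyn was higher (0.97, adjusted p = 0.00387), and the apical recycling GTPase genes Rab25 (-0.66, adjusted p = 0.0248) and Rab17 (-0.54, adjusted p = 0.0319) and Mal2 (-0.62, adjusted p = 0.0424) were lower. With library size alone none of these 3 was called and Rab17 turned to 0.07, so these calls depend on the scaling. Of 20 regulators of Pigr 8 were higher and 1 lower (median 0.64), against 14.4 and 7.56% of all genes, with Irf1 (0.96, adjusted p = 0.00112), Il4ra (1.91, adjusted p = 0.00242) and Stat3 (0.59, adjusted p = 0.00538) among those higher. Usf1 (0.03) and Usf2 (0.19), whose factors read the E-box, had estimates that did not pass.

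In the CITE-seq glands 6 of 7 tested constant genes, 10 of 17 plasma cell genes and both tested B cell genes were higher in double mutants by edgeR, at medians of 3.89, 1.24 and 5.36 against 0.00 over all genes, of which 9.24% were called higher and 4.47% lower. Tnfrsf17, the BCMA receptor of plasma cells (3.45, adjusted p = 0.00725), Pou2af1 (3.18, adjusted p = 0.0168), Ly6c2 (3.93, adjusted p = 0.000471) and Slpi (5.33, adjusted p = 0.00346) had the smallest adjusted p of their list. Of the B cell genes these were Cd79b (3.92, adjusted p = 0.00772) and Cd79a (6.80, adjusted p = 0.0112), both of which plasma cell-like cells held. For homing, 5 of 9 were higher, led by the receptor gene Ccr10 (4.94, adjusted p = 0.00203), with Cxcl12 (3.02), Cxcl13 (2.96) and Vcam1 (2.96), while Ccl28, which encodes its ligand, was lower (-1.55 ± 0.34, SE, adjusted p = 0.0255). With library size alone Ccl28 was at -0.83 (adjusted p = 0.113). None of 17 transcytosis genes was called, 3 of 20 regulators were higher (Ifngr1, Nfkb1 and Il4ra), beside 9.24% of all genes, and 5 of 6 Fc receptor genes were.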

How the data were processed

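The 30 single-cell RNA tables were deposited by the authors as raw UMI counts per gene and cell, the 4 antibody tables as raw counts of tags, and the bulk files as read counts per gene (featureCounts 1.6.0, mm10). Per the labels and methods, STAR was used for alignment and cell barcodes were picked at the knee of the read distribution. The paper states that human cells added to the CITE-seq runs were removed from its output. Whether the deposited counts still hold some was not tested. An unnamed cluster of 191 cells, led by Gm11935 and Gm12152, came from 4 libraries, with 47.6% of it from control P70 replicate 2. Its cells were kept in the sums per gland. How reads with several matches were counted is not given in the sources used here. Each library stands for 1 gland. No doublet caller was run, and the sort had a size gate against doublets. Cells with at least 100 genes and under 15% mitochondrial UMIs were kept (CITE-seq under 2500 genes), 25881 of 30082 barcodes. Cells were clustered with scanpy 1.11.5 and leidenalg 0.10.2 (2000 variable genes, 30 components, 20 neighbours, resolution 1.0) after 223 genes were held out. A cluster was named from at least 3 markers, each at least 2-fold higher and found in 10% of its cells, and otherwise called by its leading gene.

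Counts of all cells of a gland, or of each of its cell types with at least 10 cells, were added up and tested with edgeR 4.0.16 (quasi-likelihood, TMM factors, Benjamini-Hochberg adjustment over all genes tested, threshold 0.05) in R 4.3.3. DESeq2 1.42.0 was an alternative, beside other scaling, no filter on low counts, a replicate block and batch as a factor in place of stage. Further settings were thinning of each gland to the UMIs of the shallowest gland, other cluster resolutions and leaving out single glands. Thinning to 500 UMIs per cell was used only for shares of cells with a UMI. Shares of cells were compared by permutation (scipy 1.17.1), and intervals at 95% cover counting error only. Total UMIs per gland limit the precision, and a count of 0 was given a floor of 3 counts. On simulated data for whole glands (10488 genes) edgeR recovered 84% of genes changed 4-fold and 90% of those changed 8-fold, and for CITE-seq (10058 genes) 59 and 79%. Each fold size had 100 changed genes. Unchanged genes called were 8 for whole glands and 18 for CITE-seq. All 6 genes are given in every comparison of whole glands, from each gene list up to 4 called genes with the smallest adjusted p in each direction, and for Igkc and Pigr the 5 genes most alike over cell types. Single genes named beside these were chosen after their values were seen. The members and lists were chosen with earlier results of these data known, and the Muc19-led cluster, the scaling by library size alone and the fit without the clusters of highest Pigr were added after the data were seen. Results for some genes of the lists are not reported here.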

Additional observations from a re-analysis of the deposited data

Results flagged for a closer look

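Of 28 sets of values, each from 6 or 7 glands, 5 held a gland far from the rest. Chance gives this in about 1 in 20 single sets of normally distributed values. These levels were skewed, some with zeros, so that share need not hold for them. The sets came from the same glands and are not independent, so the 5 cannot be set against that share. Control P40 replicate 1 stood above the other 5 control glands of its stage in 4 genes. It held 405 CPM of Igkc (next 128), 403 CPM of Igha (next 60.1), 175 CPM of Jchain (next 37.3) and 1.72 CPM of Mzb1 (next 0.256). A single plasma cell-like cell held 99.5% of its Igkc UMIs. Double-mutant P90 replicate 7 had a plasma cell-like share of 4.41%, where the next gland of its group had 1.72%.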

How the results depend on the processing

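The 4 genes called over the 26 glands and the 4 called higher in CITE-seq kept their calls with any gland left out (4 to 4). Within P40 and P90 2 of 12 tests passed, and 6 with DESeq2, 6 with library size only, 10 without the filter on low counts, 4 without plasma cell-like cells and 0 to 5 with single glands left out. Between stages the calls went from 0 to 1 with DESeq2, library size only or no plasma cell-like cells, to 5 without the filter, and to 0 to 2 with a gland left out, and for sex they were 0 to 0. The difference between the stages was called for 3 of the 6 genes without the filter. For Pigr within cell types 2 calls appeared without the filter, higher in Klk1+-like (2.70) and lower in myoepithelial-like cells (-2.47), and 0 to 1 with a gland left out. The difference in plasma cell-like share was 0.282 points by the gate on 8 genes, and 0.820 to 1.15 with a gland left out. Same-numbered samples correlated at -0.357 to 0.513, so the numbers do not pair samples. With the replicate block 5 of the 12 tests within stages passed, Ighm over the 26 glands did (1.16, edgeR adjusted p = 0.0443), Mzb1 between stages in double mutants was -0.06 and Pigr between sexes 0.18. Signs turned for Pigr by genotype without double-mutant P90 replicate 6 (-0.03 to 0.53 over single glands left out), and at P40 with library size only (0.18). Between stages in double mutants they turned for Ighm without P40 replicate 2 (range -0.42 to 0.25), Jchain (-0.12 to 0.55) and Mzb1 (-0.44 to 0.62) without P90 replicate 7, and Pigr without P90 replicate 6 (-0.21 to 0.56). Between sexes they turned without plasma cell-like cells (Igkc 0.40, Igha 0.67, Jchain 0.44), for Ighm without double-mutant P40 replicate 2 (0.07), and for Pigr without the 2 libraries against their sex labels (0.15) or single glands (range -0.50 to 0.15). In CITE-seq Ighm was -0.19 with all barcodes and -0.55 to 1.37 without single glands, the last without control P70 replicate 2. None of these reversed values was called, and the cause was not tested. The count of all genes called by genotype was 2308, and 5583 with library size only and 542 with batch as a factor. It was 1054 of 5237 after thinning each gland to the shallowest gland. At P40 it was 155, and 731 with DESeq2, 2246 with library size only, 1313 without the filter and 998 with the replicate block. At P90 it was 922, and 1504, 1809 and 1875 with DESeq2, no filter and the block, and 368 without the 2 libraries against their sex labels. In CITE-seq it was 1379, and 644 with DESeq2, 3107 with library size only, 2356 without the filter and 495 with all barcodes. Between stages in controls it was 575, and 911 with DESeq2, 1523 without the filter and 382 with library size only, and in double mutants 0, 28 with DESeq2 and 627 without the filter. For the difference between the stages it was 1, 8 with DESeq2 and 189 without the filter. Between sexes it was 38 (92.1% higher in males), and 66 with DESeq2 or without the 2 libraries, 23 with library size only and 269 without the filter (41.3% higher). In acinar-like, Smgc+/Esp4+-like, Dcpp1+-like and Muc19-led cells it was 33, 5, 18 and 0, and 196, 49, 47 and 9 without the filter. Depth limits Mzb1, Jchain and Ighm, of which 4, 2 and 1 of the 26 glands held 0 UMIs.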
